A study of Mus musculus with 16 samples.

Results

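The data described here were the 4 TCRα repertoires of all single positive CD8 thymocytes, 2 from Themis+/+ mice and 2 from Themis-/- mice, out of 16 TCRα libraries in the series. They were chosen by their labels as the thymus libraries that had not been sorted with an antibody to Vα3.2 (TRAV9N-3). All mice were C57BL/6 and carried the Foxp3-GFP reporter, so the genotypes compared were Themis+/+Foxp3-GFP and Themis-/-Foxp3-GFP, the latter with a germline deletion of Themis. The other 12 libraries were 4 from unsorted lymph node (LN) CD8 T cells of the same genotypes, used below only beside a thymus value, and 8 from Vα3.2-sorted cells. The series describes its paired libraries as coming from separate mice, but the study's methods pool mice in some experiments, so the p-values measure the spread between libraries. A table of TCRα sequences holds no reading of Themis or of CD8, so neither the genotype nor the sort could be checked in these data.

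A TCRα chain is made when 1 of many V segments is joined to 1 of many J segments, and the join forms the CDR3 loop that contacts the peptide presented by MHC. Rearrangement of the α locus can be repeated on the same allele. The first joins use the V and J segments that lie closest to each other, and each later join replaces the earlier one with a V segment further upstream and a J segment further downstream, until the thymocyte is positively selected or dies. At the join, exonucleases trim the segment ends and terminal deoxynucleotidyl transferase adds non-templated N nucleotides. Themis is a T lineage protein that acts in TCR signalling during thymic selection. The comparison addressed whether its germline loss altered the TCRα repertoire of selected CD8 thymocytes.

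The Themis+/+ libraries held 124857 and 98460 reads, and the Themis-/- libraries held 146191 and 115766. These reads fell into 16670, 9457, 12268 and 12143 distinct CDR3 nucleotide sequences in the same order (Themis+/+ libraries 1 and 2, then Themis-/- libraries 1 and 2), which is the order of every set of 4 values below. Unless reads are named, each distinct sequence was counted once, whatever its number of reads, so that further reads of the same sequence did not add weight. A sequence and its J-end variants, described below, were each counted, so such variants did add weight unless set back. PCR reads carried no molecular identifiers, so counts and limits cover counting error only.

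A pair of technical features touch the results. First, Themis+/+ library 2 stood apart. Its J segment shares, on the log2 scale over 43 segments, had correlations of 0.57 to 0.77 with the other 3 libraries, while those 3 had correlations of 0.94 to 0.97 with each other. Second, 49.9% to 54.3% of the distinct sequences in the 4 libraries differed from the J reference within the last 12 bases of the CDR3, against 0.542% to 2.38% in the 8 Vα3.2-sorted libraries. Such substitutions were in 49.98%, 49.94%, 54.27% and 52.71% of distinct sequences, a larger share in both Themis-/- libraries. Their share of reads was also larger in both Themis-/- libraries. T-to-G changes made up 75.3% to 78.7% of these substitutions. The most abundant CDR3 of Themis+/+ library 1, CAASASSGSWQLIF (TRAV14N-2 with TRAJ22), and its commonest variant are shown because they make the pattern visible, with the substituted base in capitals.
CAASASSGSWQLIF: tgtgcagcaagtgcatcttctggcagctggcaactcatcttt
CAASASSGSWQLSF: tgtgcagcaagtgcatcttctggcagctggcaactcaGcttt
The unchanged sequence had 496, 303, 603 and 628 reads, and the variant had 181, 130, 304 and 260. The variant was thus present in all 4 libraries, each time below its partner. Setting such bases back to the J reference left 9829, 5463, 6446 and 6622 distinct sequences. The cause of the substitutions was not tested, and values after this correction are given beside those of the sequences as deposited where a call or the order of the genotypes changed for a named feature.

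J segments from the constant-region end of the locus held a larger share of the Themis-/- repertoires, and J segments from the V-proximal end a smaller share. With the 60 annotated TRAJ segments ranked from 1 at the V-proximal end, the mean rank was 33.6, 28.7, 36.1 and 35.5. The Themis-/- values both lay above the Themis+/+ values, with a mean difference of 4.69 ranks (31.1 ± 3.44 against 35.8 ± 0.458, SD, n = 2 each). The exact permutation test over libraries gave p = 0.33 (two-sided), which is the smallest p that 2 against 2 libraries allow. Without Themis+/+ library 2 the difference was 2.25 ranks, and without Themis+/+ library 1 it was 7.12. With the J-end bases set back the difference was 4.60 ranks, and weighted by reads it was 4.55.

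The shift was graded along the locus. The first block, TRAJ48 to TRAJ61, held 14.2%, 21.9%, 10.7% and 11.2% of distinct sequences, and the last block, TRAJ2 to TRAJ9, held 10.4%, 4.18%, 13.7% and 12.4%. The genotypes did not overlap in either block, but the Themis+/+ libraries were further from each other than Themis+/+ library 1 was from the Themis-/- libraries. The next blocks inwards moved the same way, with 14.8%, 19.2%, 11.7% and 12.4% for TRAJ37 to TRAJ47 and 17.99%, 12.3%, 21.8% and 21.6% for TRAJ11 to TRAJ18. The central blocks, TRAJ30 to TRAJ35 (19.3%, 21.2%, 18.6% and 18.8%) and TRAJ21 to TRAJ28 (23.3%, 21.2%, 23.4% and 23.5%), differed least. In all 6 blocks the exact permutation test over distinct sequences gave p = 0.33, its smallest value. By reads the genotypes overlapped for TRAJ21 to TRAJ28 (26.1%, 25.2%, 27.4% and 24.9%).

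Segment by segment, 13 of 43 J segments (30.2%) had both Themis-/- shares above both Themis+/+ shares, and 18 (41.9%) had both below, so that 31 (72.1%) did not overlap. After set-back of the J-end bases, 13 were higher and 15 lower. By reads, 29 of 43 (67.4%) did not overlap, 13 higher and 16 lower. Over distinct sequences, all 8 tested segments of TRAJ48 to TRAJ61 were lower, with a median log2 fold change of -0.61. In TRAJ37 to TRAJ47, 7 of 9 were lower (median -0.39). In TRAJ30 to TRAJ35 2 of 6 were lower and none higher (median -0.04), and in TRAJ21 to TRAJ28 3 of 7 were higher and 1 lower (median 0.23). In TRAJ11 to TRAJ18 6 of 7 were higher (median 0.44), and in TRAJ2 to TRAJ9 4 of 6 were higher (median 0.88), beside a median of 0.01 over all 43. By reads, 7 segments of TRAJ48 to TRAJ61 were lower and 1, TRAJ50, was higher (1.96%, 1.71%, 2.82% and 2.01%). The plot of J segment shares in locus order shows this tilt, and shows that Themis+/+ library 1 ran close to the Themis-/- libraries over much of the locus.

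**Figure D1:**
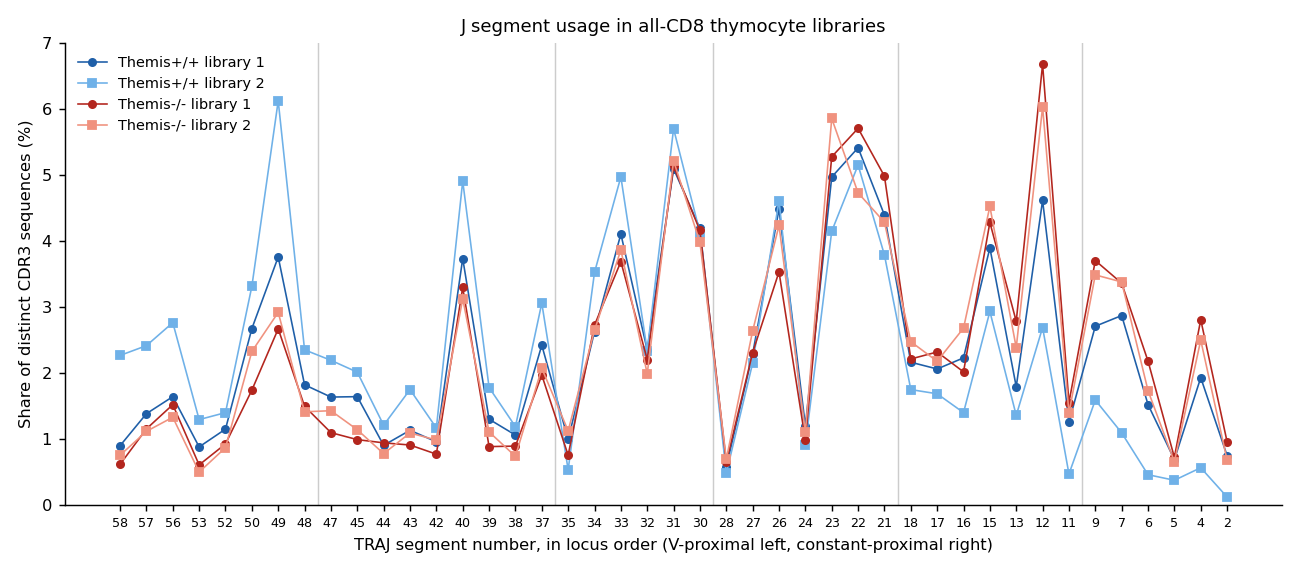
Share of distinct CDR3 sequences (%, vertical axis) using each of the 43 tested TRAJ segments, in locus order from the V-proximal (left) to the constant-proximal end (right); each line is 1 library and grey lines part the 6 blocks. Themis+/+ library 2 (light blue) lies highest at the left end and lowest at the right end, and TRAJ12 is the highest point of Themis-/- library 1 (6.68%).

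TRAJ12 was the J segment that passed the test. It lies at chr14:54206553-54206610 on the plus strand of GRCm38, where it is annotated as a J gene segment, at rank 50 in the array. Its sequence is given because it carries the result, with the codons of the F-G-S-G motif, whose F is the last residue of the CDR3, in capitals.
TRAJ12: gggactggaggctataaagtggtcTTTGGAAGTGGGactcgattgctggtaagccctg
TRAJ12 was used by 769, 254, 819 and 732 distinct sequences, which were 4.61%, 2.69%, 6.68% and 6.03% of each library. The Themis-/- libraries were both higher. The log2 fold change was 0.86 ± 0.21 (SE), with an adjusted p of 0.0237 in edgeR's quasi-likelihood test with Benjamini-Hochberg adjustment, and TRAJ12 was the 1 segment of 43 that was called (2.33%). By reads, TRAJ12 held 3.34%, 1.43%, 5.24% and 4.77%, with a log2 fold change of 1.11 and an edgeR adjusted p of 0.00792, again the 1 called of 43. Over distinct sequences, the log2 fold change was 0.53 without Themis+/+ library 2. TRAJ12 was not called without that library or without either Themis-/- library, over distinct sequences or by reads. Over distinct sequences with the J-end bases set back, the log2 fold change was 0.82 (edgeR adjusted p of 0.235). The call over distinct sequences thus depended on this step. That call was also lost without TMM (edgeR adjusted p of 0.0643) and with all 8 unsorted libraries in the fit (0.191). The call by reads was lost with DESeq2 (adjusted p of 0.0613), without TMM (0.0628 in edgeR), with the replicate block (0.129) and with all 8 libraries (0.227).

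The most used J segments did not pass the test. TRAJ31 was used by 5.09%, 5.70%, 5.13% and 5.21% of distinct sequences, TRAJ22 by 5.41%, 5.15%, 5.71% and 4.73%, and TRAJ23 by 4.97%, 4.15%, 5.27% and 5.86%. The genotypes overlapped for TRAJ31 and TRAJ22. For TRAJ23 both Themis-/- libraries were higher, with a log2 fold change of 0.36 and an edgeR adjusted p of 0.245, and the genotypes overlapped once the J-end bases were set back. By reads the leading segments were TRAJ22 at 8.11%, 8.29%, 8.59% and 7.15%, TRAJ26 at 5.47%, 6.15%, 4.42% and 4.80%, and TRAJ30 at 4.96%, 4.23%, 4.07% and 4.69%. Of these, TRAJ26 was lower in both Themis-/- libraries, with a log2 fold change of -0.30 and an edgeR adjusted p of 0.427.

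At the ends of the array, differences were large in size but rested on Themis+/+ library 2. TRAJ58, the most V-proximal segment with at least 10 reads in each library, was used by 0.894%, 2.26%, 0.611% and 0.749% of distinct sequences. Themis+/+ library 2 was the high value, and the log2 fold change of -1.13 became -0.32 without it. TRAJ2, the most constant-proximal segment, was used by 0.744%, 0.116%, 0.954% and 0.675%, where Themis+/+ library 2 was the low value and the genotypes overlapped, although both Themis-/- libraries were higher once the J-end bases were set back (0.794%, 0.11%, 1.16% and 0.846%). Neither passed the test (edgeR adjusted p of 0.171 and 0.319).

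The LN libraries of the same genotypes had mean J ranks of 29.7 and 32.6 in Themis+/+ and 34.96 and 34.2 in Themis-/- mice. As in thymus, the Themis-/- values lay above the Themis+/+ values. TRAJ12 was used by 3.05% and 4.71% of Themis+/+ and by 6.86% and 5.004% of Themis-/- LN sequences. Whether the genotype difference itself differed between thymus and LN was tested as an interaction term over 43 J segments. edgeR called 0 of 43 (0%), with 0 at an unadjusted p under 0.05, and DESeq2 called 0.

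On the V side, the Themis-/- repertoires held larger shares of V segments that lie far from the J array. The V segments were split into 3 equal parts by locus order, and sequences with a single best V segment were counted, since 20.9% to 24.1% of sequences matched copies in the duplicated V region equally well. The distal part held 14.01%, 12.3%, 16.5% and 15.9% of all distinct sequences, and the middle part 30.2%, 26.8%, 33.1% and 33.2%. The part next to the J array held 30.8%, 37.7%, 26.5% and 26.1%. The genotypes did not overlap in any of these parts, with the Themis+/+ libraries higher only in the part next to the J segments, and the exact permutation test gave its smallest p of 0.33 for each.

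Of 50 V segments, with copies that differ only by a D or N in the name joined, edgeR called 5 (10%), and 28 (56%) had non-overlapping genotypes. TRAV12-3 was used by 8.06%, 5.95%, 8.73% and 9.16% of distinct sequences (log2 fold change 0.34, edgeR adjusted p of 0.00577), and was the most used V segment. TRAV1, the first V segment of the locus, was used by 0.648%, 0.349%, 1.24% and 1.03% (log2 fold change 1.15, edgeR adjusted p of 0.0166). In both, the Themis-/- libraries were above both Themis+/+ libraries, with Themis+/+ library 2 the lowest. TRAV19 was used by 1.42%, 1.96%, 0.823% and 0.725% (log2 fold change -1.12, edgeR adjusted p of 0.00522), and TRAV5-4 by 2.11%, 2.36%, 1.19% and 1.4% (log2 fold change -0.79, edgeR adjusted p of 0.00577). TRDV1, a V segment of the δ chain, was used by 0.534%, 1.44%, 0.342% and 0.511% (log2 fold change -1.18, edgeR adjusted p of 0.0307). These 3 were lower in both Themis-/- libraries, and TRDV1 was high in Themis+/+ library 2 alone. None of the 5 calls was made without Themis+/+ library 2 or without either Themis-/- library. Without Themis+/+ library 2 the log2 fold change was 0.14 for TRAV12-3, 0.80 for TRAV1, -0.88 for TRAV19, -0.71 for TRAV5-4 and -0.33 for TRDV1. With the J-end bases set back, TRAV12-3, TRAV19 and TRAV5-4 were called and TRAV1 and TRDV1 were not, and the genotypes overlapped for TRDV1.

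The other leading V segments overlapped between genotypes in the sequences as deposited. TRAV12-2 was used by 7.05%, 6.67%, 6.54% and 7.09% of distinct sequences and TRAV3-3 by 6.69%, 7.52%, 7.16% and 6.80%. TRAV12-2, once the J-end bases were set back, was at 7.32%, 7.30%, 6.79% and 7.13%, lower in both Themis-/- libraries but not called (log2 fold change -0.09, edgeR adjusted p of 0.451). TRAV9-3, which joins TRAV9N-3 (Vα3.2) with TRAV9D-3, was used by 0.936%, 0.846%, 1.27% and 1.14%. Both Themis-/- values were higher for TRAV9-3, but the log2 fold change of 0.43 had an edgeR adjusted p of 0.372.

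The J shift was also present within V segments. The mean J rank of each V segment with at least 100 distinct sequences in every library was compared, and in 22 of 23 (95.7%) both Themis-/- libraries lay above both Themis+/+ libraries. The mean difference was above 0 in all 23 and ran from 2.27 ranks (TRAV13-4) to 5.97 ranks (TRAV14-3), with a median of 3.57. Without Themis+/+ library 2 it was above 0 in 22 of 23 and ran from -0.192 (TRAV7-3) to 4.37 ranks (TRAV5-4), with a median of 1.74. For TRAV12-3 the mean J rank was 38.4, 34.6, 39.9 and 40.1, and for TRAV5-4 it was 26.4, 23.2, 30.9 and 30.6. The exception was TRAV7-3, at 39.0, 33.9, 39.8 and 37.8, where Themis+/+ library 1 exceeded Themis-/- library 2. With the J-end bases set back, 21 of 23 were non-overlapping and higher. The V segments share the same 4 libraries and are not independent of each other. With V segment shares held at their mean over the 4 libraries, the difference in mean J rank was 3.86, against 4.69 as measured, and 1.85 without Themis+/+ library 2. The plot of mean J rank by V segment shows Themis+/+ library 2 at the far left of every row.

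**Figure D2:**
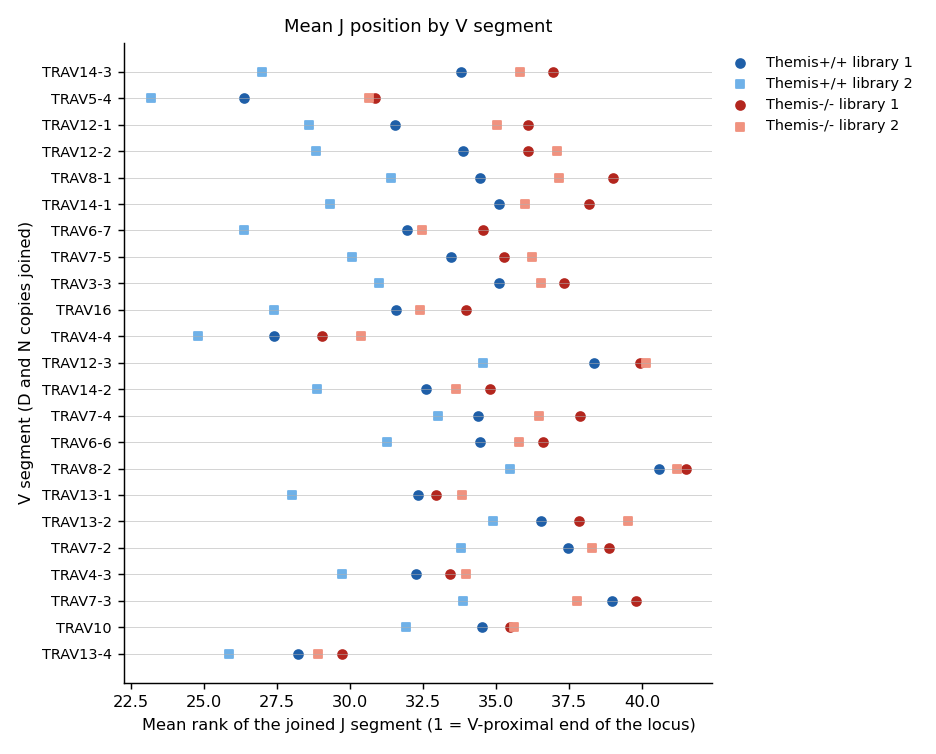
Mean rank of the joined J segment (horizontal axis, 1 at the V-proximal end) for each of 23 V segments (vertical axis, ordered by the difference between genotypes, largest at the top); each point is 1 library. In 22 of 23 segments both Themis-/- points (red shades) lie to the right of both Themis+/+ points (blue shades), with TRAV7-3 the exception.

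V and J positions were coupled in every library. Within a library, V rank and J rank over distinct sequences had a Spearman correlation of -0.336, -0.331, -0.305 and -0.291. The mean J rank was 27.6, 24.8, 29.1 and 28.9 in the V part next to the J array, 37.4, 32.3, 39.6 and 39.1 in the middle part and 36.3, 32.4, 38.1 and 37.3 in the distal part, so the middle part was the highest in 3 of the 4 libraries. The coupling was weaker in both Themis-/- libraries, by 0.0360 (exact permutation p = 0.33, the smallest possible). Using only V segments without a D or N copy gave -0.668, -0.561, -0.527 and -0.631, where the genotypes overlapped. The mean J rank was higher in Themis-/- mice within each part of the V array, by 3.38 ranks in the distal, 4.55 in the middle and 2.799 in the proximal part. Without Themis+/+ library 2 these differences were 1.41, 1.96 and 1.37 ranks.

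Of 481 V-J pairs tested, edgeR called 0 (0%), with 33 at an unadjusted p under 0.05, and DESeq2 called 0. Both Themis-/- libraries were above both Themis+/+ libraries for 106 pairs (22%) and below for 98 (20.4%). These pairs were not evenly spread over the J array. Of pairs with TRAJ48 to TRAJ61, 2.6% were higher and 41.6% lower, and of pairs with TRAJ37 to TRAJ47 1.52% were higher and 45.5% lower. Of pairs with TRAJ11 to TRAJ18, 44.7% were higher and 5.32% lower, and of pairs with TRAJ2 to TRAJ9 50.0% were higher and 0.0% lower. The 3 most used pairs were TRAV12-3 with TRAJ23 (0.708%, 0.360%, 0.660% and 1.05%), with TRAJ31 (0.828%, 0.518%, 0.571% and 0.560%) and with TRAJ12 (0.450%, 0.286%, 0.668% and 0.791%). Of these, the genotypes did not overlap for TRAV12-3 with TRAJ12, with a log2 fold change of 0.93 and an edgeR adjusted p of 0.575. After the J-end bases were set back, edgeR called 1 of the 235 pairs then tested, TRAV19 with TRAJ56.

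CDR3s were slightly shorter in Themis-/- thymocytes. Mean length was 40.6 and 40.7 bp in Themis+/+ and 40.4 and 40.3 bp in Themis-/- libraries, a difference of -0.255 bp (40.6 ± 0.0769 against 40.4 ± 0.0646, SD, n = 2 each; exact permutation p = 0.33, the smallest possible). CDR3s of 36 bp (15.3%, 15.1%, 16.001% and 15.9%) and of 39 bp (24.4%, 25.3%, 26.4% and 26.3%) held larger shares in both Themis-/- libraries. Those of 45 bp (15.3%, 16.3%, 14.1% and 13.9%) and of at least 48 bp (7.71%, 7.90%, 6.49% and 6.50%) held smaller shares in both, with the largest difference at 45 bp (-1.84 percentage points). With J segment shares held at their mean over the 4 libraries, the difference in mean length was -0.117 bp and that in sequences of at least 48 bp -0.555 percentage points, against -1.31 as measured. The genotypes remained apart in both after this step.

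Fewer N nucleotides were added in the Themis-/- sequences. The mean number of bases between the V and J parts was 2.67 and 2.71 in Themis+/+ and 2.54 and 2.48 in Themis-/- libraries. Palindromic bases were counted as N bases here and below unless stated. Both Themis-/- libraries were lower, by 0.184 bases on average (2.69 ± 0.0325 against 2.51 ± 0.0431, SD, n = 2 each; exact permutation p = 0.33, the smallest possible), and the difference was -0.120 with J shares held, -0.157 with the J-end bases set back and -0.161 when palindromic ends were counted as germline. Sequences with at least 6 N bases were 10.1%, 10.9%, 8.11% and 7.59% of each library, and with J shares held the difference was -2.05 percentage points against -2.68 as measured. Sequences without any N base were 21.2%, 21.7%, 22.1% and 22.2%, higher in both Themis-/- libraries by 0.713 percentage points. This order was lost when sequences were weighted by reads (-0.0723) and when J shares were held (0.170, with overlap). With palindromic ends counted as germline, these shares rose to 31.8% to 33.3%, again higher in both Themis-/- libraries, by 0.799 percentage points. In LN, mean length was 40.8 and 40.7 bp in Themis+/+ and 40.5 bp in each Themis-/- library, and the mean number of N bases was 2.65 and 2.72 against 2.45 and 2.43.

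**Figure D3:**
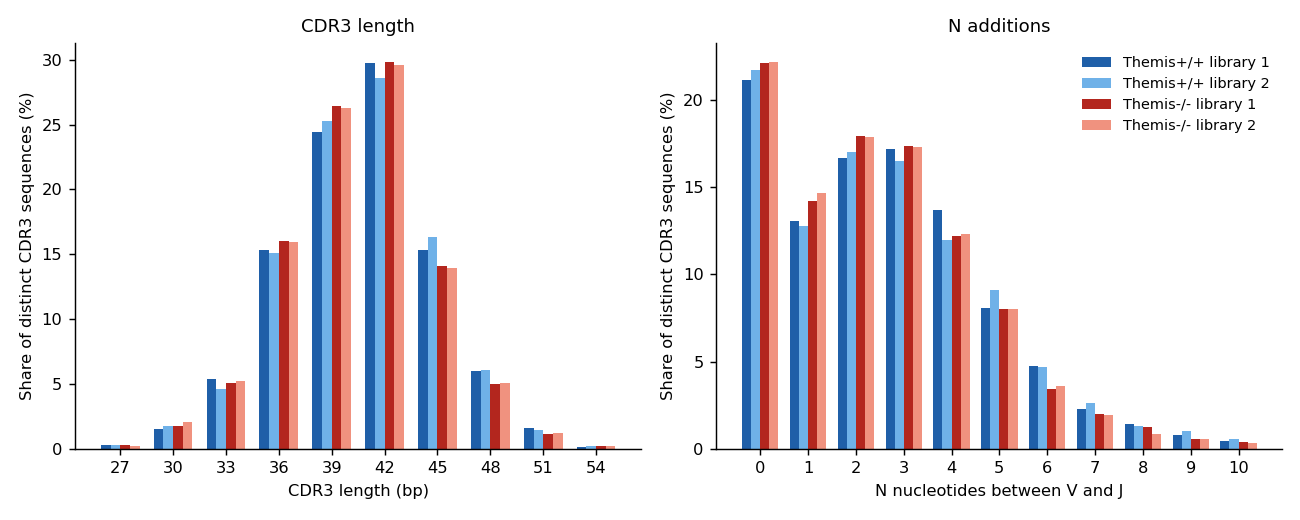
Share of distinct CDR3 sequences (%, vertical axes) by CDR3 length in bp (left) and by number of N nucleotides between V and J (right); each bar is 1 library. Themis-/- bars (red shades) are lower at 48 bp and at 6 or more N bases, where the summed shares were 8.11% and 7.59% against 10.1% and 10.9%.

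V ends had lost 1.99, 1.97, 1.98 and 2.02 bases on average, where the genotypes overlapped (exact permutation p = 0.667). J ends had lost 2.67, 2.62, 2.61 and 2.62 bases, with both Themis-/- libraries lower by 0.0320 bases (exact permutation p = 0.33), a difference of the size of the SD between the Themis+/+ libraries (0.0313). Weighted by reads, V ends had lost 1.94, 1.96, 2.03 and 2.01 bases and J ends 2.61, 2.63, 2.52 and 2.56. Both Themis-/- libraries were then higher for V ends (by 0.0682) and lower for J ends (-0.0801), each with the smallest exact permutation p of 0.33.

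Residue composition in the middle of the CDR3, without the first 3 and last 3 residues, differed for a majority of residues over distinct sequences. Of 20 residues, 7 (35%) made up a larger share in both Themis-/- libraries, namely F, G, K, L, M, R and Y, and 6 (30%) a smaller share, namely A, D, E, H, P and Q. Glycine held 17.2%, 16.8%, 17.7% and 17.5% of residues, tyrosine 6.94%, 6.68%, 7.35% and 7.21%, and alanine 6.60%, 6.85%, 6.07% and 6.44%. These were the largest differences over distinct sequences, at 0.557, 0.469 and -0.466 percentage points, and each had the smallest exact permutation p of 0.33. Arginine was higher by 0.434 and glutamate differed by -0.446. The genotypes overlapped for F and H with the J-end bases set back, which left 6 residues higher and 5 lower. By reads 5 were higher and 6 lower, and the glycine difference was 0.184, with alanine at -0.736, asparagine at -0.640, glutamate at -0.549 and tyrosine at 0.530, all without overlap.

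Most of these differences were smaller at equal J usage. With J segment shares held at their mean over the 4 libraries, the glycine difference became -0.00366, the tyrosine difference 0.0738 and the alanine difference -0.0729 percentage points. The difference was kept in direction without overlap for 3 of the 7 higher residues (K, R and Y) and 4 of the 6 lower residues (A, E, H and P). Counted anew with J shares held, 7 residues were higher (K, N, Q, R, T, V and Y) and 6 lower (A, E, H, M, P and S) without overlap. Asparagine turned from -0.389 to 0.221 and serine from 0.119 to -0.174, both of which had overlapped as measured. Methionine turned from 0.114 to -0.0426 and glutamine from -0.272 to 0.0454, both without overlap. Arginine kept 0.229 and glutamate -0.196, and proline, at -0.250, did not shrink. Mean hydropathicity on the Kyte-Doolittle scale was -1.50, -1.54, -1.49 and -1.49. Both Themis-/- libraries were less hydrophilic, by 0.0251 units, but by 0.00384 without Themis+/+ library 2, and the difference was -0.00363 with J shares held.

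**Figure D4:**
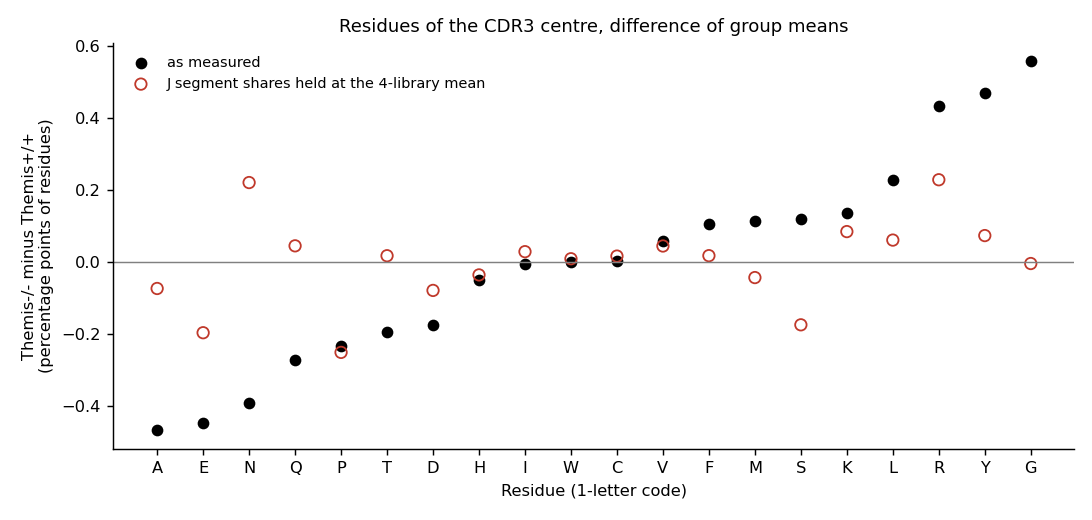
Difference between the genotype means (Themis-/- minus Themis+/+, percentage points of residues, vertical axis) for each of 20 residues in the CDR3 middle (horizontal axis, 1-letter code); filled points are as measured and open points have J segment shares held at the 4-library mean. Glycine moves from 0.557 to -0.00366 and alanine from -0.466 to -0.0729, while proline stays near -0.25.

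In CDR3s of 14 residues, each residue at positions 4 to 11 was counted, and edgeR called 2 of 106 residue positions (1.89%). Glycine at position 9 was present in 21.1%, 18.02%, 25.1% and 25.1% of these sequences (log2 fold change 0.36, edgeR adjusted p of 0.0214). Asparagine at position 11 was present in 5.08%, 8.25%, 3.72% and 3.42% (log2 fold change -0.87, edgeR adjusted p of 0.0214). The Themis-/- libraries were alike and lay apart from both Themis+/+ libraries in each case. TRAJ12 supplied 23.1% of the sequences with glycine at position 9, more than any other J segment, and TRAJ49 supplied 99.3% of those with asparagine at position 11. With J shares held, the differences were 0.0163 percentage points for glycine at position 9, against 5.57 as measured, and -0.0886 for asparagine at position 11, against -3.09. Both were called with the J-end bases set back, and neither without Themis+/+ library 2 (log2 fold change 0.25 and -0.51) or without either Themis-/- library. DESeq2 called 0 of the 106 (adjusted p of 0.152 for glycine and 0.15 for asparagine), as did edgeR with the replicate block (adjusted p of 0.461 for both) and by reads (adjusted p of 0.828 for both).

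A cysteine other than the first residue was found in 2.84%, 3.12%, 3.18% and 3.28% of distinct sequences. Both Themis-/- libraries were slightly higher, by 0.250 percentage points (exact permutation p = 0.33). After the J-end bases were set back the shares fell to 0.458%, 0.860%, 0.621% and 0.544%, where the genotypes overlapped and the difference was -0.0770.

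Clone sizes overlapped between genotypes at the level of the 100 most abundant sequences. These held 8.10% and 12.5% of reads in Themis+/+ and 14.1% and 11.2% in Themis-/- libraries (exact permutation p = 0.667). Themis+/+ library 1 was the most even of the 4, and without Themis+/+ library 2 the difference was 4.51 percentage points rather than 2.30. The 10 most abundant sequences held 1.58%, 2.43%, 4.74% and 2.97% of reads, with both Themis-/- libraries higher (exact permutation p = 0.33, the smallest possible). Sequences with at least 0.1% of the reads numbered 17, 60, 44 and 37, in which Themis+/+ library 2 was the highest.

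The most abundant CDR3 of Themis+/+ library 1 was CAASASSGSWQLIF, shown above, and the leading CDR3s of the other 3 libraries are given here with N bases in capitals, because they show how differently the leading clones were built.
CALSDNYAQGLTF: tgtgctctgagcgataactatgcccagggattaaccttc
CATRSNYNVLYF: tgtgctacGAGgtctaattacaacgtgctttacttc
TRAV6N-7 with TRAJ12: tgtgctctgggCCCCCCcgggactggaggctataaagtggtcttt
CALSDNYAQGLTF (TRAV12N-3 with TRAJ26) had 0 N bases and 380 reads in Themis+/+ library 2. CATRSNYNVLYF (TRAV8D-1 with TRAJ21) had 3 N bases and 1778 reads in Themis-/- library 1, which was 1.22% of that library. The TRAV6N-7 with TRAJ12 sequence of 45 bp had 6 N bases and 745 reads in Themis-/- library 2, or 0.644%. Its J part as called begins a base before the annotated TRAJ12 sequence given above, so its N count rests on the deposited calls. Each of these 3 nucleotide sequences was found in 1 library and had 0 reads in the others, where a count of 0 allows a share of up to 0.00205% to 0.00305% (3 reads of the library's total). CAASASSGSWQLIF had 0 N bases and was found in all 4 libraries.

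Among 1296 CDR3 amino acid sequences tested by reads, edgeR called 0 (0%), with 117 at an unadjusted p under 0.05, and DESeq2 called 11, of which 3 were higher and 8 lower in Themis-/-. Of 33494 amino acid sequences in the union of the 4 libraries, 372 were found in all 4. As a percent of the smaller library, the Themis+/+ libraries shared 19.0% with each other and the Themis-/- libraries 15.3%. Between genotypes, Themis+/+ library 1 shared 18.7% with each Themis-/- library, and Themis+/+ library 2 shared 13.8% and 14.01%. Sharing within genotypes exceeded sharing between them by 0.854 percentage points (exact test over the 3 possible library pairings, one-sided p = 0.33, the smallest possible), which was less than the gap between the 2 Themis+/+ libraries in their sharing with Themis-/-.

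The 5 CDR3s found in all 4 libraries with the highest mean share of reads included the semi-invariant chain of iNKT cells. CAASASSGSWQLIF led, with 698, 487, 705 and 641 reads over all its nucleotide sequences, and its J-end variant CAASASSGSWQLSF followed, with 308, 180, 322 and 289. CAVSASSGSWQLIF (TRAV3N-3 with TRAJ22) had 419, 124, 111 and 96 reads, and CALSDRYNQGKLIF (TRAV12N-3 with TRAJ23) had 176, 206, 102 and 210. The canonical chain (TRAV11D with TRAJ18, CDR3 of 45 bp), with 41, 75, 311 and 279 reads, was the 1 among them that was higher in both Themis-/- libraries.

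Invariant natural killer T (iNKT) cells recognise glycolipids on CD1d through a TRAV11-TRAJ18 chain of fixed length, and in mice most of them lack CD8, so that a single positive CD8 gate would remove most. The source of the chains below was not tested. TRAV11-TRAJ18 chains with a CDR3 of 45 bp had 66, 100, 517 and 457 reads, which were 0.0529%, 0.102%, 0.354% and 0.395% of each library. Both Themis-/- libraries were above both Themis+/+ libraries (0.0772% ± 0.0344 against 0.374% ± 0.0291, SD, n = 2 each; exact permutation p = 0.33, the smallest possible), and without Themis+/+ library 2 the difference was 0.321 rather than 0.297 percentage points. These reads came from few sequences, namely 3, 1, 5 and 6 after the J-end bases were set back. They made up 2.31%, 6.27%, 14.1% and 13.4% of the TRAJ18 reads, while TRAJ18 itself held 2.29%, 1.62%, 2.51% and 2.94% of all reads.

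Different nucleotide sequences encoded the canonical chain. The 3 most abundant are shown because they differ at a single codon at the join, with the N base in capitals.
TRAV11-TRAJ18 with 1 N base: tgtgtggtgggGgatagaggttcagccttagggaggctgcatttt
TRAV11-TRAJ18 with 0 N bases, first: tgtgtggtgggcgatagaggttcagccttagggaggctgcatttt
TRAV11-TRAJ18 with 0 N bases, second: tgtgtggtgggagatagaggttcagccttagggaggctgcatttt
The sequence with an N base had 0, 71, 161 and 0 reads, the first without had 34, 0, 42 and 101, and the second without had 0, 0, 29 and 127. These 3 were picked by reads summed over the 4 libraries, and most such reads were from Themis-/-. Their presence by library therefore does not compare the genotypes. In the test over amino acid sequences, the canonical chain had a log2 fold change of 2.05 with an edgeR adjusted p of 0.449. That test called 0 of 200 sequences simulated with a log2 fold change of 2, so it could not decide on a difference of this size. In LN the same class of chains had 16 and 0 reads in Themis+/+ and 0 and 3 in Themis-/- libraries.

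The other chains that were counted did not follow this pattern. The TRAV1-TRAJ33 chain of mucosal-associated invariant T cells, with a CDR3 of 36 bp, had 26 reads in Themis+/+ library 1 and 0 in the other 3, where a count of 0 allows up to 0.00305%. V segments named TRDV held 0.653%, 1.86%, 0.549% and 0.549% of reads. Themis+/+ library 2 was the high value, and the difference of -0.709 percentage points was -0.104 without it. TRDJ1 was used by 0, 3, 0 and 0 distinct sequences, so nearly all TRDV segments were joined to a TRAJ segment. The libraries were amplified from TCRα transcripts with a constant-region primer, so this could not show whether cells with a δ chain were present. TRDV segments were therefore not read as a marker of another cell type. The part of iNKT or TRDV sequences in the J and V results was not tested.

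**Figure D5:**
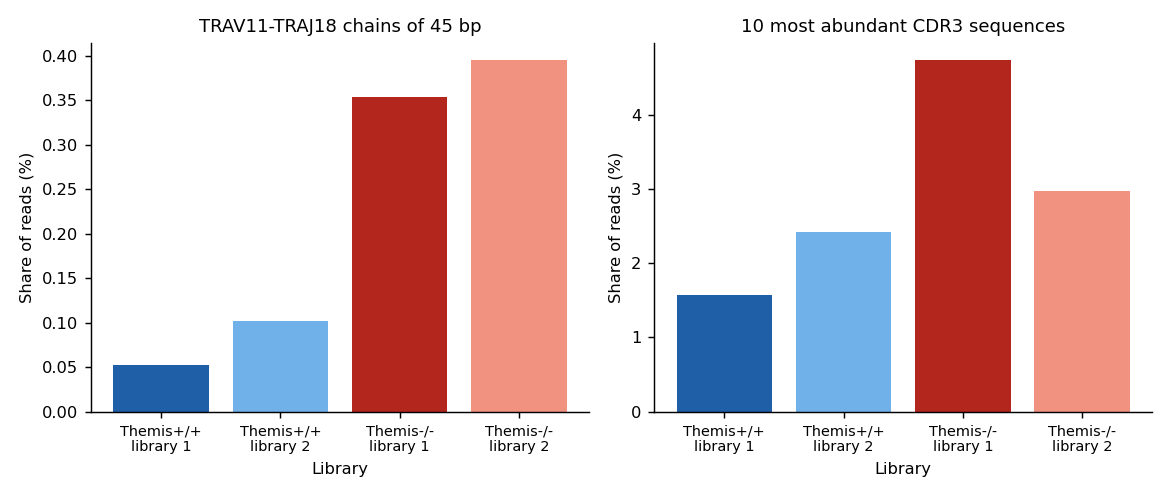
Share of reads (%, vertical axes) held by TRAV11-TRAJ18 chains with a CDR3 of 45 bp (left) and by the 10 most abundant CDR3 nucleotide sequences (right); each bar is 1 library. The Themis-/- bars (red shades) reach 0.354% and 0.395% on the left, against 0.0529% and 0.102%, and 4.74% and 2.97% on the right, against 1.58% and 2.43%.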

How the data were processed

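Total RNA from sorted cells was reverse transcribed with template switching and amplified by PCR in nested rounds with a constant-region primer, per the labels and the study's methods. The authors assembled TCRα sequences with MiXCR, whose version the sources used here do not give. They deposited, for each library, a table of CDR3 sequences with read counts and each sequence's fraction of its library. The fraction column, deposited by the authors, was not used in any result. The submitters' processing notes name CASAVA 1.4 and the build mm9. Segment positions and order were taken from the GENCODE M21 annotation of GRCm38, and no coordinates of other builds were mixed in.

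The best V and J hits, CDR3 bases and V and J end points were read from each table. N bases were those between the end points, with palindromic bases next to the segments counted among them. In the alternative for palindromic ends these were counted as germline. Libraries were grouped by genotype from the labels (n = 2 each) and held 98460 to 146191 reads. Counts per segment, pair, residue position or clonotype with at least 10 in at least 2 libraries were compared with edgeR 4.0.16 (quasi-likelihood test, TMM, Benjamini-Hochberg, threshold 0.05) in R 4.3.3. For residue positions, library sizes were the numbers of 14-residue sequences. Single values per library were compared with a two-sided exact permutation test over all divisions of the 4 libraries (Python 3.11.15). Alternatives were DESeq2 1.42.0, no TMM, no filter, leaving out sequences of 1 read, thinning to 98460 reads, weighting by reads, the replicate block and leaving out each library. Set-back of J-end bases, J or V shares held at the 4-library mean, palindromic ends and V segments without copies were added after the data were seen. Scripts were tested on counts simulated with this design, with some features changed by a log2 fold change of 1 or 2. At 1, edgeR called 0 of 9 changed J segments by reads and 6 of 9 over distinct sequences. For the held shares, each library's value per segment was averaged with the mean segment shares of the 4 libraries as weights.

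Named features were those called with non-overlapping genotypes (up to 5 each way), the 3 most used J segments, V segments and pairs, the first and last J segment, the J blocks, the 3 parts of the V array, the V segments the study names (of which TRAV9N-3 is given here), the leading CDR3 of each library, the 5 leading CDR3s shared by all 4 and the 3 residues with the largest differences. TRAV5-4, TRAV14-3, TRAV13-4 and TRAV7-3 in the J rank comparison, TRAJ50, TRDJ1, and TRAV19 with TRAJ56 were named after their values were seen. So were residues K, R, E, P, N, M, Q, S, T and V. The members and lists were chosen with earlier results of these data known.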

Additional observations from a re-analysis of the deposited data

How the results depend on the processing

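Only 2 libraries per genotype limit every p, and with any library but Themis+/+ library 1 left out edgeR called 0 J segments, 0 V segments and 0 residue positions. The J calls by reads (1 of 43) fell to 0 with DESeq2, library totals without TMM, the replicate block or all 8 unsorted libraries in the fit, and ran from 0 to 17 when 1 library was left out. The J calls over distinct sequences (1) became 0 without TMM, with J-end bases set back or with 8 libraries, 2 when thinned, 3 with no filter or with the block, and 0 to 24 when 1 library was left out, with 24 and 17 both without Themis+/+ library 1. The V calls (5) became 1 with DESeq2, 3 without sequences of 1 read or with the block, 0 by reads, and 0 to 4 when 1 library was left out. The V-J pair calls (0) became 1 with no filter or with set-back bases, 2 by reads, and 0 to 41 when 1 library was left out. The clonotype calls (0) became 11 with DESeq2. The residue position calls (2) became 0 with DESeq2, the block or by reads, 1 without sequences of 1 read, and 0 to 7 when 1 library was left out. Directions reversed for V end trimming without Themis-/- library 2 (-0.00394, over a leave-one-out range of -0.00394 to 0.0401), for sequences without N bases by reads (-0.0723, and -0.0692 with set-back bases), for internal cysteine by reads (-0.0966), set back (-0.0770) or both (-0.0456), and for hydropathicity with J shares held (-0.00363). The cause of these changes was not tested, except that leaving out a library leaves a genotype with 1 library, assumed to vary like the other. The replicate block used numbers that the labels share between genotypes but do not say mark a mouse pair or a batch. Same-numbered libraries had deviations over 43 J segments with a correlation of 0.33, and with 2 pairs this does not show pairing. The block cannot change the mean J rank difference of 4.69, because the mean of the pair differences equals the difference of the group means. Beside the counts above, the block called 0 V-J pairs, 0 clonotypes and 0 interaction terms. No paired analysis was possible for sharing because it has no value per library. The other 155 comparisons of a summary value with an alternative kept their direction or, for calls, a count within 1.5 times. Values per library were judged by direction alone, because the exact test cannot reach the threshold. With the replicate block their direction was fixed in advance.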

Other observations

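CDR3 nucleotide sequences found in all 4 libraries were built differently from the rest. Of 46988 distinct sequences in the union, 90 were present in all 4 libraries, encoding 80 amino acid sequences. Of these, 74.4% had no N base, against 19.7% of the union. Their mean J rank was 36.3, against 33.6 in the union. With the J-end bases set back, 85 of 25684 sequences were present in all 4, of which 72.9% had no N base, against 18.4% of the union. These shares are descriptions over sequences of the same 4 libraries, and no test was made.

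The 100 most abundant sequences of each library were also found in another library more often than the library as a whole, at 30%, 21%, 34% and 34% against 11.7%, 13.5%, 13.1% and 13.6%. The part of read depth in this difference was not tested.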
